A study of Mus musculus with 405 samples.

Results

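The 9 genes described here encode the pore-forming subunits of the AMPA receptors (Gria1 to Gria4) and of the kainate receptors (Grik1 to Grik5). They were taken by symbol from 13304 genes in a table of normalised expression and from 23893 genes in a table of read counts, and all 9 were present in both. The set was chosen with earlier results of these data known. The screen treated neuron-enriched cultures of embryonic mouse cortex (dams C57BL/6J, sires CAST/EiJ, embryonic day 15 by the labels) with 1 chemical each for 24 h from day in vitro 7, and measured polyadenylated RNA by sequencing. Its table held 393 libraries, of which 49 were from vehicle (solvent-treated) cultures, 32 from cultures given 0.3 µM topotecan and the rest from other chemicals, 282 of the 297 chemicals having a single library. The count table held 4 libraries of cultures given 0.1 µM pyraclostrobin and 4 of vehicle. Every group shared the hybrid genotype, each chemical was given at 1 dose only, and 257 of the 297 were at 10 µM. The cultures also held astrocytes, microglia and other cells, so that in these bulk libraries fewer cells of a type and less RNA per cell cannot be told apart. The study counted neurons, astrocytes and microglia by immunostaining after the fungicide fenamidone and found no significant change. It reports no such count for the other chemicals, and other cell types were not counted.

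AMPA and kainate receptors are glutamate-gated cation channels, each built from several subunits around a shared pore. AMPA receptors carry most fast excitatory transmission in the cortex, and the GluA2 subunit (Gria2) keeps calcium out of the channel once its RNA has been edited at a single codon of the pore loop, the Q/R site. Kainate receptors combine the subunits of Grik1, Grik2 and Grik3, which can form channels alone, with those of Grik4 and Grik5, which bind glutamate tightly and need a partner of the first kind. They act both before and after the synapse, and Grik1 is known for its expression in GABAergic interneurons.

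The coding stretch around the pore-loop codon is shown for all 9 genes because editing of this codon controls calcium entry in Gria2 and also occurs in Grik1 and Grik2. Each line gives 27 bases of the coding strand, 5′ to 3′, from the NCBIM37 (mm9) genome, with the Q/R-site codon of Gria2, Grik1 and Grik2, or the codon at the matching place, in capitals.
Gria1: ttctcgctgggggccttcatgCAGcaa
Gria2: ttttccttgggtgcctttatgCAGcaa
Gria3: ttttccttgggtgcttttatgCAGcaa
Gria4: ttttccctgggtgcctttatgCAAcaa
Grik1: tttggcgttggagctctcatgCAGcaa
Grik2: tttggagttggagctctcatgCAGcaa
Grik3: tttggaatgggctccctgatgCAGcaa
Grik4: tttccggttggaggcttcatgCAGcaa
Grik5: ttccccgtgggtggcttcatgCAGcag
The genome codon was CAG in 8 of the 9 genes and CAA in Gria4. Over the 27 bases the other AMPA genes matched Gria2 at 22 to 26 positions, and Grik1 matched Grik2 at 26. The Gria2 stretch lies in exon 11 of 17 at chr3:80510830-80510856 on the minus strand. The Grik2 stretch lies in exon 13 of 17 at chr10:48964132-48964158, also on the minus strand, and the Grik1 stretch in exon 11 of 15 at chr16:87940784-87940810 on the minus strand. Counts per gene carry no editing state, so the edited share was not measured here.

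In the 4 vehicle libraries of the count table, Gria2 was the most abundant of the 9 transcripts per length. Levels are given as CPM, read counts scaled to library size, per kb of the longest annotated coding transcript. Gria2 stood at 88.8 ± 18.4 CPM per kb (mean ± SD, n = 4), with libraries from 65.0 to 109.7. Gria1 (GluA1, the subunit best known for activity-dependent insertion at synapses) followed with 53.5 ± 4.50, and Grik5 (GluK5, a high-affinity partner subunit) with 50.05 ± 3.48. The ranges of Gria1 and Grik5 overlapped, and their order turned when the union of all exons was used as the length. Gria4 had 26.2 ± 3.22 CPM per kb. Grik3 (17.4 ± 3.01) and Gria3 (15.9 ± 1.67) overlapped each other, as did Grik2 (11.4 ± 2.11) and Grik1 (7.48 ± 2.10). With the union of exons Gria3 stood at 8.38 and Grik2 at 6.63 CPM per kb, and Gria3 then overlapped Grik2 and not Grik3. Grik4 was by far the lowest at 0.875 ± 0.332 CPM per kb, resting on 7 to 41 counts per library.

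**Figure D1:**
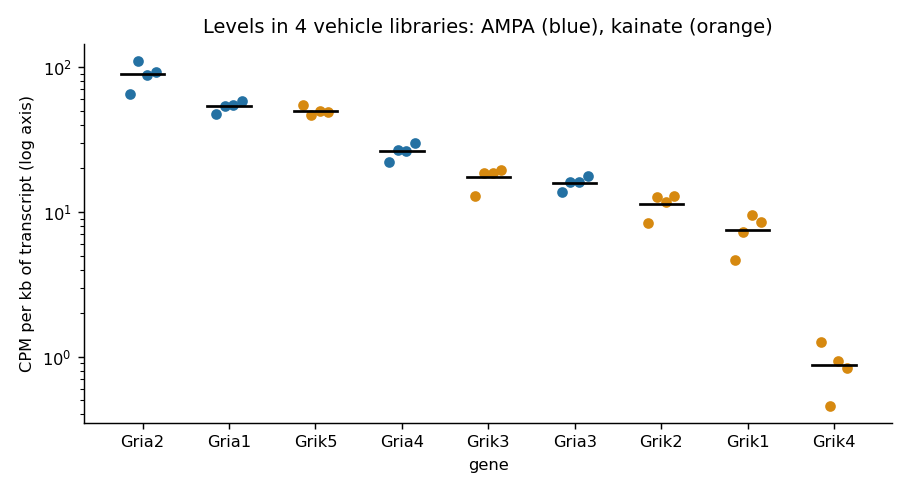
Level of each gene in the 4 vehicle libraries, in CPM per kb of the longest coding transcript on a log axis; points are libraries, black bars means, AMPA genes blue and kainate genes orange. Gria2 stands above the others at a mean of 88.8 and Grik4 lies apart at a mean of 0.875.

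The AMPA genes together made up 64.3% to 70.7% of the summed level of the 9 genes per kb in vehicle. All shares use the longest coding transcript and were not computed for the union of exons. Within the AMPA genes the Gria2 share was 43.9% to 53.1%, that of Gria1 26.2% to 31.97%, that of Gria4 12.9% to 15.1% and that of Gria3 7.77% to 9.24%. Within the kainate genes the largest share was that of Grik5, 53.7% to 66.8%, and the summed level of the channel-forming Grik1, Grik2 and Grik3 was 0.463 to 0.831 of that of Grik4 and Grik5.

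The vehicle libraries of the count table did not all look alike. The library numbered 428 correlated with the other 3 at 0.932 to 0.940 (Pearson, log2 CPM across genes), while those 3 correlated with each other at 0.986 to 0.993. The pyraclostrobin library of the same number correlated with its group at 0.949 to 0.958, against 0.975 to 0.978 among the other 3. Depth ran from 2409623 to 7833440 counts per library, and the vehicle libraries 703 and 704 were the deepest. The labels do not state that the replicates of the count table are separate cultures, and the study describes fewer biological replicates than libraries for this experiment, so some may share a culture and p-values measure the spread between these libraries.

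Pyraclostrobin, a strobilurin fungicide that blocks mitochondrial complex III, lowered 7 of the 9 genes, 3 of the AMPA and 4 of the kainate group, and raised none. Over all 12324 genes tested 34.9% changed, 16.4% being lower and 18.5% higher, by the same rule, an adjusted p below 0.05 in edgeR's quasi-likelihood test with Benjamini-Hochberg adjustment. The largest fall was in Grik1 (GluK1), with 13.5, 20.9, 27.5 and 24.7 CPM in the vehicle libraries 428, 702, 703 and 704 and 1.17, 4.11, 4.55 and 4.32 CPM in the pyraclostrobin libraries of the same numbers. The groups did not overlap, and even the lowest vehicle library held several times the level of the highest treated one. The log2 fold change was −2.62 ± 0.35 (SE, adjusted p = 0.000257). The treated libraries held only 3 to 12 Grik1 counts each.

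Grik3 (GluK3, a kainate subunit that forms channels of low glutamate affinity) had 116, 167, 167 and 176 CPM in vehicle and 35.6, 72.2, 37.9 and 65.7 CPM with pyraclostrobin. All treated libraries were below all vehicle libraries, and the change was −1.57 ± 0.24 on the log2 scale (adjusted p = 0.000548, edgeR). The Gria1 groups did not overlap either. It had 262, 300.3, 303 and 322 CPM in vehicle and 132, 160, 123 and 152.5 CPM after treatment, a log2 change of −1.07 ± 0.12 (adjusted p = 0.000121, edgeR).

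Grik2 (GluK2, the main channel-forming kainate subunit of the forebrain) ranged from 40.1 to 62.0 CPM in vehicle and from 25.003 to 36.96 CPM in treated libraries, without overlap. Its log2 change was −0.91 ± 0.18 (adjusted p = 0.00298, edgeR). Gria4, the AMPA subunit typical of developing cortex and of interneurons, fell from 120 to 162 CPM in vehicle to 81.5 to 100.3 CPM, a log2 change of −0.69 ± 0.13 (adjusted p = 0.00201, edgeR). Grik5 was lower too, 179 to 211 against 108 to 157 CPM, with a log2 change of −0.47 ± 0.13 (adjusted p = 0.0191, edgeR). Of all genes tested, 16.9% had every treated library below every vehicle library and 18.2% had every one above, against 6 and 0 of the 9 genes here. Of the genes over 100 kb, to which 8 of the 9 belong, 21.1% were lower.

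Gria2 fell by less and its groups overlapped. It had 452, 763, 614 and 642 CPM in vehicle and 422, 472, 434 and 495 CPM with pyraclostrobin, where only the vehicle library 428 lay within the treated range. The log2 change was −0.44 ± 0.15 (adjusted p = 0.0397, edgeR), and the call was lost without any of 6 single libraries, the adjusted p then lying between 0.0590 and 0.119. Gria3 showed no detectable change. It had 71.0, 83.3, 84.1 and 92.0 CPM in vehicle and 107, 69.6, 79.2 and 76.3 CPM in treated cultures, a log2 change of 0.0051 ± 0.15 (adjusted p = 0.985, edgeR). Grik4, with 7 to 41 vehicle counts and 8 to 12 treated counts, gave −0.43 ± 0.32 (adjusted p = 0.337, edgeR), and a change of this size was not detectable at this depth.

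**Figure D2:**
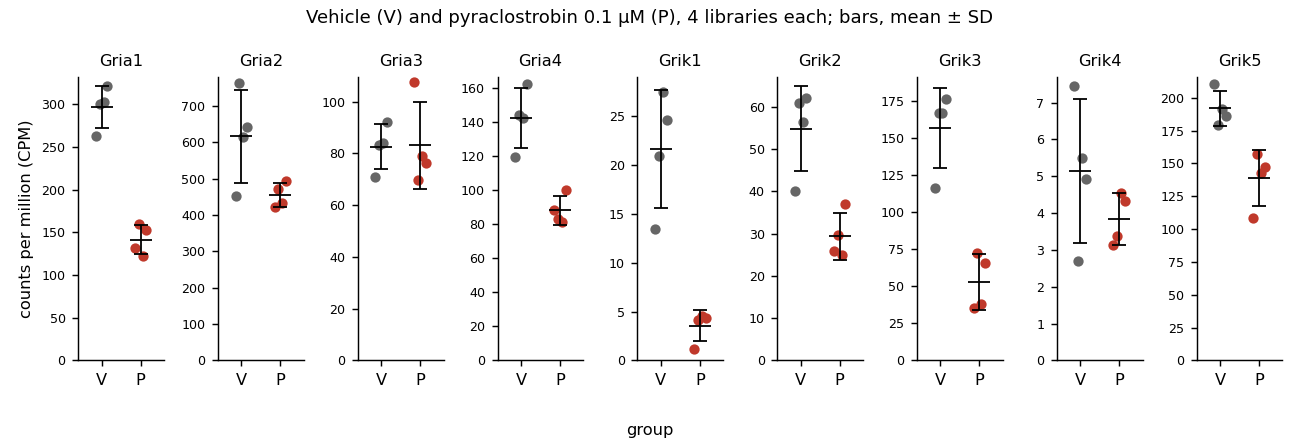
CPM of each gene in the 4 vehicle (V, grey) and 4 pyraclostrobin (P, red) libraries on linear axes from 0, with mean ± SD as bars. Grik1 falls from 13.5 to 27.5 CPM to 1.17 to 4.55 CPM, while Gria3 and Grik4 overlap between the groups.

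The composition of the family shifted as the levels fell. The summed AMPA level was 148 to 206 CPM per kb in vehicle and 115 to 132 with pyraclostrobin, and the summed kainate level 82.1 to 90.7 and 38.5 to 57.2. Gria1 made up 19.3% to 22.97% of the AMPA level in treated libraries, below its vehicle range of 26.2% to 31.97%, and Gria3 made up 10.7% to 17.1%, above its vehicle range of 7.77% to 9.24%. The Gria2 share, 49.9% to 54.4%, overlapped its vehicle range. Among the kainate genes the Grik5 share was 69.0% to 76.0% after treatment, above all vehicle libraries, and Grik1 to Grik3 together stood at 0.289 to 0.422 of Grik4 and Grik5.

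Markers of other cell types moved with these changes. All 6 neuron markers were lower with pyraclostrobin, their summed level being 8363 to 8905 CPM in vehicle and 3556 to 4470 CPM after treatment, and 3 of 5 markers of inhibitory neurons and 2 of 5 of excitatory neurons were lower (edgeR). All 4 microglial and all 4 vascular and fibroblast markers that were tested, with 3 of 5 astrocyte and 3 of 5 oligodendrocyte-lineage markers, were higher; the summed vascular and fibroblast level was 50.4 to 126 CPM in vehicle and 695 to 1007 CPM with pyraclostrobin, with the endothelial marker Cldn5 at 0 in every library. The summed microglial level rose from 14.5 to 21.7 CPM to 57.4 to 87.9 CPM, and the astrocyte sums were 617 to 912 and 806 to 2798 CPM.

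Set against the neuron markers, the 9 genes split into 3 groups. Per 1000 CPM of the 6 markers, Grik1 was 1.51 to 3.26 in vehicle and 0.330 to 1.19 with pyraclostrobin, and was the only one of the 9 still lower in every treated library. Gria2, Gria3 and Grik5 were higher in every treated library by this measure, with ratios of the means of 1.56, 2.17 and 1.53. The sum of the markers itself fell with pyraclostrobin, so a gene that fell less, or not at all as Gria3, comes out higher. The share of all genes on each side was not computed. Gria1, Gria4, Grik2, Grik3 and Grik4 overlapped, Grik3 having a ratio of 0.697 and Gria1 one of 1.01. The 5 inhibitory neuron markers summed to 400 to 902 CPM in vehicle and to 85.6 to 436 CPM after treatment. Grik1, with 3 to 12 counts per treated library, was not set against them. The part of these markers in the falls was not tested.

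The screen allowed the same genes to be followed under 7 complex III inhibitors, the libraries of a chemical being reduced to their median and the class set against every other chemical in limma. Values of the screen are log2 differences from the mean of the 49 vehicle libraries, and the pyraclostrobin library here is the library 428 of the count table, so it is no independent repeat of it. Grik1, Grik3, Gria1 and Gria2 were lower, 4 of 9, and none was higher; 12.0% of all genes were lower and 5.53% higher. Grik1 was at −2.15 with pyraclostrobin (0.1 µM), −2.12 with fenamidone, −1.501 with trifloxystrobin and −1.33 with famoxadone (all 10 µM). The 2 famoxadone libraries were far apart, at −2.20 and −0.46, the second inside the vehicle range. The other 3 chemicals gave −0.67 for fluoxastrobin (1 µM), −0.24 for cyazofamid (10 µM) and −0.22 for azoxystrobin (0.1 µM), inside the vehicle range of −1.003 to 1.24. The class difference for Grik1 was −1.13 ± 0.15 (SE, adjusted p = 3.05e-10, limma).

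Grik3 split the class in the same place, so its class difference averages over chemicals with a fall and chemicals without. It was at −1.60 with trifloxystrobin, −1.57 with pyraclostrobin, −1.52 with fenamidone and −0.59 with famoxadone, and between −0.12 and 0.022 with fluoxastrobin, cyazofamid and azoxystrobin, where the vehicle libraries ran from −0.29 to 0.36. Both libraries of fenamidone, −1.81 and −1.24, lay below every vehicle library. The class difference was −0.71 ± 0.10 (adjusted p = 9.4e-10, limma). Gria1 ranged from −0.65 to 0.074 (class difference −0.27 ± 0.070, adjusted p = 0.00203, limma), and Gria2 from −0.29 to 0.071 (−0.14 ± 0.049, adjusted p = 0.0269, limma). The Gria1 call was lost without trifloxystrobin (adjusted p = 0.0540), and that of Gria2 without any 1 of the 4 chemicals with the lowest Grik1.

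Of the 63 pairs of gene and complex III inhibitor, 15 lay below the vehicle range, against 6.03% for all genes, and Grik1 alone was below the vehicle mean in all 7, as were 6.00% of all genes. Gria3 was above the vehicle mean in 6 of the 7 complex III inhibitors, from −0.090 to 0.28, a difference of 0.10 ± 0.065 that did not pass (adjusted p = 0.350, limma). Gria4 (−0.090 ± 0.065), Grik2 (−0.21 ± 0.11), Grik4 (−0.042 ± 0.22) and Grik5 (−0.16 ± 0.063) did not pass either, with adjusted p-values of 0.4005, 0.202, 0.940 and 0.0572 (limma). In the same comparison all 6 neuron markers and 4 of 5 inhibitory neuron markers were lower, and all 4 vascular and fibroblast markers were higher. The mean of the 5 inhibitory neuron markers ran from −1.47 to −0.029 over the 7 chemicals, and that of the neuron markers from −0.80 to 0.0045. Their part in the result was not tested.

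**Figure D3:**
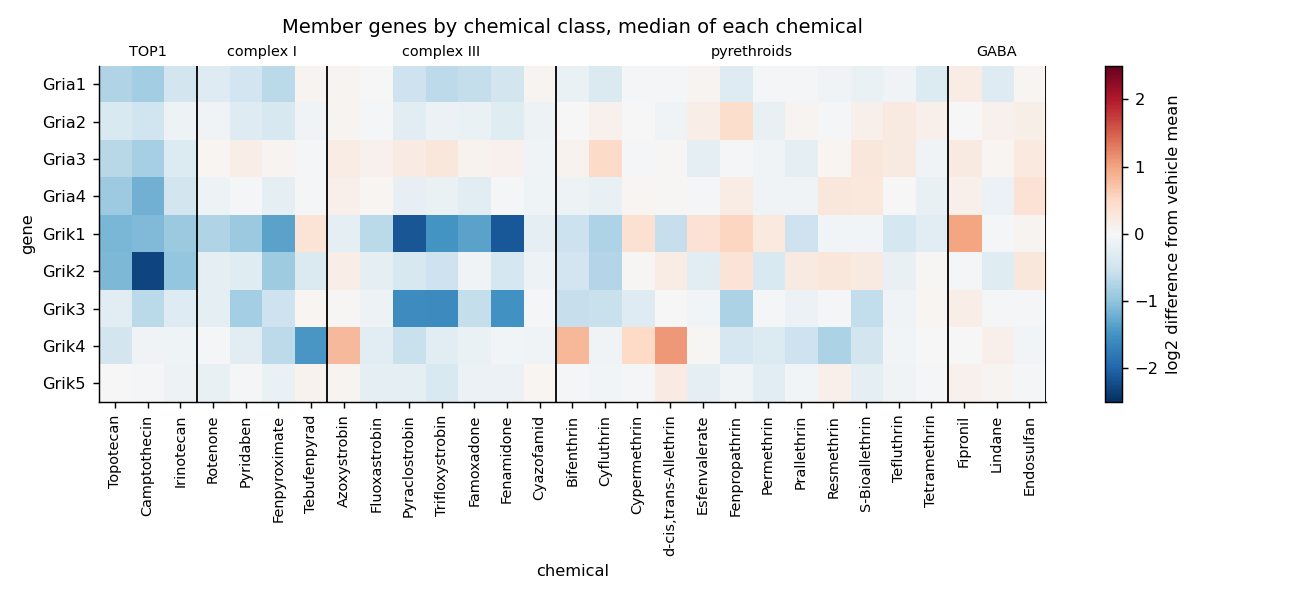
Log2 difference of each gene (rows) from the vehicle mean for each chemical (columns, median of its libraries), grouped by known mode of action, blue for lower and red for higher. Grik1 and Grik3 are darkest blue in pyraclostrobin, trifloxystrobin and fenamidone, and Grik2 in camptothecin at −2.30.

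Complex I inhibitors act one step earlier in the same respiratory chain. The 4 in the screen (rotenone at 0.01 µM, pyridaben and fenpyroximate at 0.1 µM, tebufenpyrad at 0.01 µM) lowered 2 of the 9 genes, where 3.98% of all genes were lower and 0.564% higher. Gria1 was at −0.68 with fenpyroximate, −0.49 with pyridaben, −0.33 with rotenone and 0.070 with tebufenpyrad, a class difference of −0.32 ± 0.093 (adjusted p = 0.0195, limma). Gria2 was at −0.39, −0.31, −0.089 and −0.085 in that order, a difference of −0.22 ± 0.064 (adjusted p = 0.0204, limma). Both calls rested on single chemicals. Without fenpyroximate the adjusted p was 1 for Gria1 and 0.927 for Gria2, without pyridaben 0.159 and 0.167, and without rotenone Gria1 was at 0.0550 (limma).

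Grik1 had the largest difference of the 9 under complex I inhibitors, −0.61 ± 0.22, but did not pass (adjusted p = 0.0882, limma). It was at −1.33 with fenpyroximate, −0.93 with pyridaben and −0.75 with rotenone, and at 0.34 with tebufenpyrad. Grik2 (−0.42 ± 0.14, adjusted p = 0.0672, limma) and Grik3 (−0.31 ± 0.14, adjusted p = 0.251, limma) did not pass against the other chemicals. Against the vehicle libraries Grik1, Grik2 and Grik3 passed, with adjusted p-values of 0.0374, 0.0116 and 0.00708 (limma), while Gria2 did not (0.0532). In that setting 752 of all 13304 genes were lower, in place of 530. Of the markers, 3 of 6 for neurons and 4 of 5 for inhibitory neurons were lower in the comparison with the other chemicals.

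Pyrethroids, which hold sodium channels open, and blockers of the GABA-gated chloride channel were tested in the same way. None of the 9 genes passed for the 12 pyrethroids, where 0.451% of all genes did (0.195% lower and 0.256% higher). At an unadjusted p below 0.05 there were 2, Gria2 and Grik3, against 1539 of all 13304 genes (limma). Gria1 was below the vehicle mean in 11 of the 12 and Grik5 in 10, and such counts over all genes were not made. Grik3 was also below it in 11 of the 12 and at −0.79 with fenpropathrin, with a class difference of −0.20 ± 0.082 (adjusted p = 0.280, limma). Gria2 was at 0.44 with the same chemical and the class difference was 0.084 ± 0.038 (adjusted p = 0.333, limma). For the 3 channel blockers fipronil, lindane and endosulfan no gene of the 13304 passed, 855 having an unadjusted p below 0.05, and none of the 9 had an unadjusted p below 0.05 (limma). The highest Grik1 value of the screen, 0.99 with fipronil, belonged to this class and lay inside the vehicle range.

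Topotecan inhibits topoisomerase 1 (TOP1), an enzyme that relieves supercoiling ahead of RNA polymerase, and its inhibitors are known to lower transcripts of long genes in neurons. All 4 AMPA genes and 4 of the 5 kainate genes were lower across 32 topotecan and 49 vehicle libraries, and none was higher, where 45.8% of all genes changed, 20.9% being lower and 24.8% higher (limma, adjusted p below 0.05). Of the 1932 genes over 100 kb, 65.7% were lower; 8 of the 9 genes here are of that length. Grik2, the longest at 689 kb (chr10:48819266-49508572), fell most. Its vehicle libraries ran from −0.52 to 0.66 around a median of −0.027, and its topotecan libraries from −2.92 to −0.45 around a median of −1.13. Of the 32 topotecan libraries 31 lay below every vehicle library, and the difference of the means was −1.32 ± 0.081 (SE, adjusted p = 2.01e-25, limma). The labels name no batch for these libraries, and some may share a culture. The p-values for topotecan therefore measure the spread between libraries after the authors' batch correction.

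Gria4, 378 kb long, was the one gene of the 9 whose groups did not overlap, which held for 1.01% of all genes in the lower direction. Its lowest, median and highest vehicle values were −0.31, 0.014 and 0.51, and those of topotecan −1.44, −0.92 and −0.48, a difference of −0.91 ± 0.043 (adjusted p = 1.33e-32, limma). Grik1 (394 kb) differed by −1.07 ± 0.099 (adjusted p = 4.99e-16, limma), with 20 of 32 topotecan libraries below a broad vehicle range of −1.003 to 1.24. Gria1 (319 kb) and Gria3 (278 kb) differed by −0.73 ± 0.056 and −0.72 ± 0.049, with adjusted p-values of 7.02e-20 and 5.16e-23 (limma). For both, all 32 topotecan libraries were below the vehicle mean, and 28 and 26 of them were below the lowest vehicle library.

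The shorter genes moved less. Grik3 (223 kb) differed by −0.29 ± 0.046 (adjusted p = 1.75e-07, limma) and Gria2 (118 kb, chr3:80488858-80606713) by −0.41 ± 0.040 (adjusted p = 6.37e-15, limma). Grik5, the shortest at 62.5 kb, gave −0.015 ± 0.035 (adjusted p = 0.749, limma), with 15 of 32 topotecan libraries below the vehicle mean. Length did not order all 9. Grik3 differed by less than the shorter Gria2, and Grik4, at 426 kb the second longest, differed by −0.43 ± 0.13 (adjusted p = 0.00450, limma), and its vehicle libraries alone spread from −2.21 to 0.75.

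**Figure D4:**
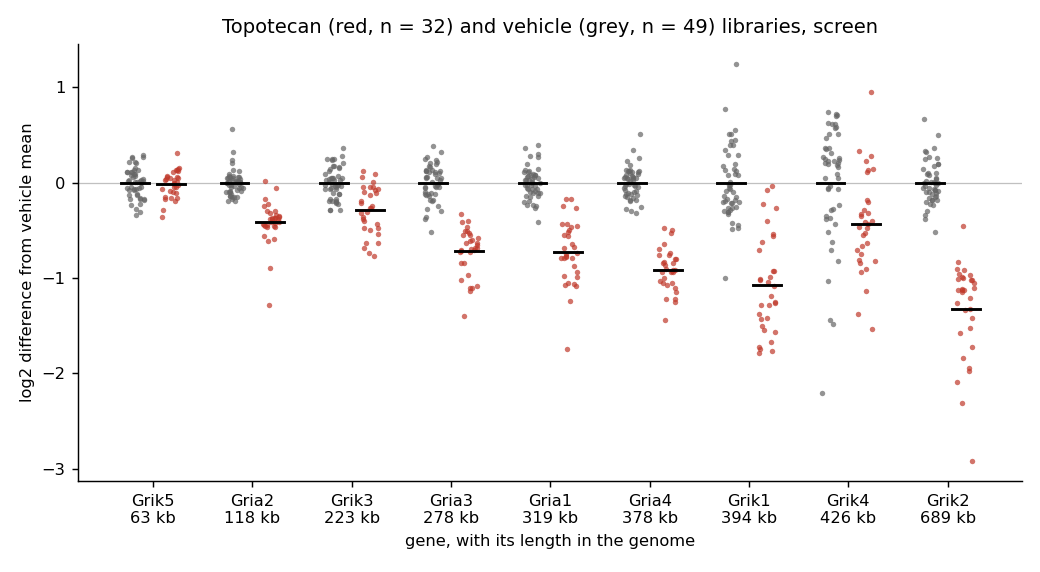
Log2 difference from the vehicle mean in each of 49 vehicle (grey) and 32 topotecan (red) libraries, genes ordered by their length in the genome, black bars for means. The means go from −0.015 for Grik5 to −1.32 for Grik2, while Grik3 and Grik4 break the order, Grik4 with a wide spread in both groups.

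The other TOP1 inhibitors in the screen had 1 library each and no test. With camptothecin (0.3 µM) Grik2 was at −2.30, Gria4 at −1.19 and Grik1 at −1.11, and with irinotecan (10 µM) they were at −0.97, −0.46 and −0.92. Grik5 was at −0.032 and −0.13. Marker levels moved under topotecan as well: all 6 neuron markers were lower, with a mean from −0.85 to −0.17 per library, and 3 of 5 inhibitory neuron and all 5 astrocyte markers were lower, while 4 of 5 excitatory neuron markers were higher. Their part in the falls was not tested.

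Genes of proteins that bind these receptors moved in both directions under topotecan. Of 15 AMPA auxiliary subunits, which tether and tune the channel, 7 were higher and 4 lower, where 24.8% of all genes were higher and 20.9% lower, and the median difference was 0.11 against 0.028 over all genes. Prrt1 (SynDIG4) rose by 0.41 ± 0.074, Gsg1l by 0.35 ± 0.085 and Cacng3 (the stargazin relative TARP γ-3) by 0.30 ± 0.066, with adjusted p-values of 3.16e-06, 0.000419 and 8.96e-05 (limma). Shisa6, another auxiliary protein, differed by −0.52 ± 0.045 (adjusted p = 2.16e-17, limma). Neto1, which associates with kainate receptors, differed by −0.66 ± 0.052 (adjusted p = 1.16e-19, limma), while its relative Neto2 gave −0.055 ± 0.034 (adjusted p = 0.187, limma). Grip1, a scaffold that binds GluA2 and GluA3, had the largest fall in the lists at −0.83 ± 0.051 (adjusted p = 1.83e-25, limma).

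With pyraclostrobin 7 of the 15 AMPA auxiliary genes were lower and none higher, where 16.4% of all genes were lower and 18.5% higher, with a median log2 change of −0.27 against −0.0021 over all genes. Prrt1 went from 13.8 to 30.9 CPM in vehicle to 6.82 to 12.6 CPM (log2 change −1.35 ± 0.27, adjusted p = 0.00313, edgeR), and Gsg1l from 13.6 to 23.4 to 6.68 to 8.596 CPM (−1.14 ± 0.24, adjusted p = 0.00388, edgeR). Both were thus lower here and higher with topotecan. Among scaffold and trafficking proteins 5 were lower and 2 higher of 11 tested. Grip2 fell by 1.17 ± 0.20 on the log2 scale (adjusted p = 0.00108, edgeR). Arc, an immediate early gene whose protein promotes AMPA receptor endocytosis, rose from 4.65 to 6.30 CPM to 7.42 to 12.97 CPM (0.86 ± 0.24, adjusted p = 0.0160, edgeR), and Dlg1 (SAP97) rose by 0.66 ± 0.21 (adjusted p = 0.0280, edgeR).

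Adarb1, the enzyme ADAR2 that edits the Gria2 codon shown above, was lower with pyraclostrobin by −0.80 ± 0.16 on the log2 scale (adjusted p = 0.00234, edgeR), lower under complex III inhibitors by −0.35 ± 0.064 (adjusted p = 5.05e-06, limma) and lower with topotecan by −0.15 ± 0.029 (adjusted p = 1.74e-05, limma). Adar, the related enzyme ADAR1, was lower with topotecan by −0.088 ± 0.027 (adjusted p = 0.00574, limma), and gave −0.32 ± 0.16 with pyraclostrobin (adjusted p = 0.150, edgeR) and −0.092 ± 0.037 under complex III inhibitors (adjusted p = 0.0704, limma). Under complex I inhibitors neither enzyme passed. The median log2 change of the 6 neuron markers was −1.12 with pyraclostrobin, −0.34 under complex III inhibitors and −0.29 with topotecan. The neuronal pentraxins, secreted proteins that cluster AMPA receptors, were lower in 2 of 3 cases with pyraclostrobin and in 3 of 3 under complex III inhibitors. Of all genes 16.4% and 12.0% were lower in these comparisons. Under complex III inhibitors Nptx2 fell by 0.71 ± 0.16 (adjusted p = 0.000190, limma), Neto1 by 0.68 ± 0.099 (adjusted p = 3.48e-09, limma) and Gsg1l by 0.62 ± 0.17 (adjusted p = 0.00363, limma), and 7 of 15 AMPA auxiliary genes were lower (12.0% of all genes). Under complex I inhibitors 3 of the 15 were lower (3.98% of all genes), led by Cacng2 (stargazin) at −0.61 ± 0.12 (adjusted p = 0.000112, limma), together with Shisa7 (−0.31 ± 0.082, adjusted p = 0.00926, limma), and Grip2 was lower at −0.50 ± 0.11 (adjusted p = 0.000781, limma).

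Over the chemicals other than the TOP1 inhibitors, 202 left all 9 genes within the range of the 49 vehicle libraries. Of the 2646 pairs of gene and chemical, 3.25% lay below and 1.66% above that range, against 2.67% and 2.07% for all genes. Grik3 left it most often, below it in 37 chemicals and above it in 3, and its spread over chemicals (SD 0.28) exceeded that over vehicle libraries (SD 0.16). For the other 8 genes the 2 SDs lay closer, 0.12 and 0.14 for Gria2, 0.43 and 0.38 for Grik1. Gria3 was below the range in no chemical and above it in 5. Grik4 was above it in 24 chemicals and below it in none. Its vehicle range reached much further down than up, from −2.21 to 0.75. The Grik4 SD over chemicals (0.59) did not exceed that over vehicle libraries (0.62), and its median over chemicals was −0.0053.

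Most extreme values came from chemicals with a single library and have no replicate check. The lowest Gria1 value was −0.75 with metiram-zinc, a dithiocarbamate fungicide, followed by −0.68 with fenpyroximate and −0.65 with trifloxystrobin. Gria2 was lowest with fosthiazate (−0.45), metsulfuron (−0.40) and fenpyroximate (−0.39), and highest with fenpropathrin (0.44), which still lay within the vehicle range. Gria3 was lowest with chlorothalonil, at −0.48 and −0.47 in its 2 libraries, and highest with cyfluthrin (0.48). Gria4 ranged from −0.35 with fenitrothion to 0.36 with endosulfan. Grik2 was lowest with emamectin benzoate (−1.34, 1 µM), followed by fenpyroximate (−0.89) and cyfluthrin (−0.74). Grik5 ran from −0.42 with trifluralin to 0.57 with spirodiclofen. Grik3 was highest at 0.42 with diclofop-methyl, and Grik4 ran from −2.18 with forchlorfenuron to 1.24 with chlorpropham.

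Fenpyroximate placed 5 of the 9 genes below the vehicle range, where it placed 11.8% of all genes there. Fenamidone, pyraclostrobin and trifloxystrobin placed 4 each (9.35%, 11.4% and 10.8% of all genes), and famoxadone, pyridaben and metsulfuron 3 each (7.37%, 4.71% and 10.2%). Metsulfuron also placed 1 above the range, as it did 6.81% of all genes. In the 13 chemicals with 2 libraries the median absolute difference between the libraries was 0.86 for Grik1 and 0.51 for Grik4, against 0.14 to 0.34 for the other genes, so that single values of Grik1 and Grik4 are the least certain.

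**Figure D5:**
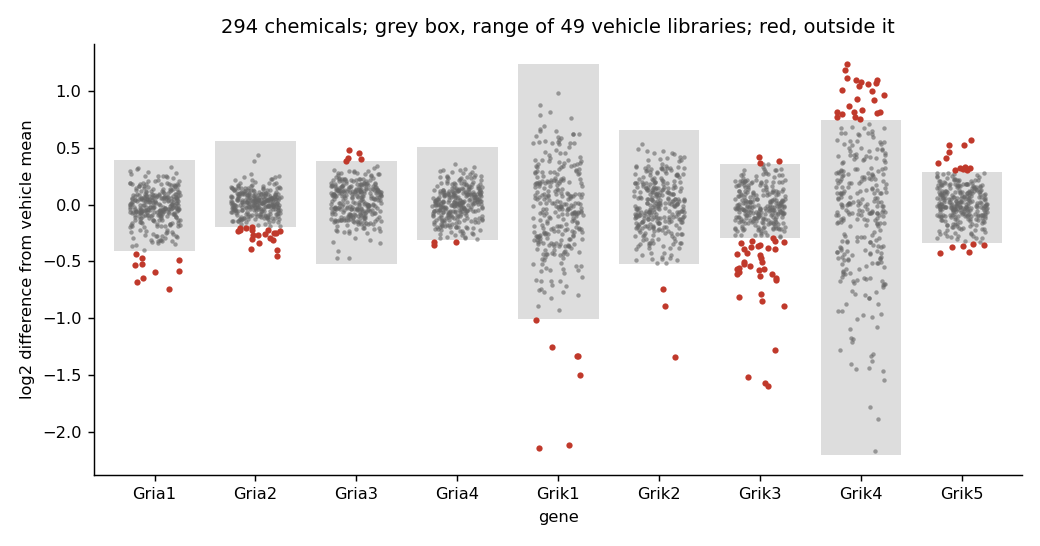
Log2 difference of each gene from the vehicle mean for the chemicals other than TOP1 inhibitors (points, median of the libraries of each); grey boxes span the 49 vehicle libraries and red points lie outside them. Grik3 has the most red points below its box, 37, and Grik4 the most above, 24. The Grik4 box runs from −2.21 to 0.75.

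The study sorted chemicals into clusters from these same libraries, on genes that include Grik1, Grik2 and Grik4, so its clusters are described here without a test. In cluster 2, which holds 8 chemicals and overlaps the respiratory-chain inhibitors above, 24 of 72 pairs of gene and chemical were below the vehicle range, where all genes gave 8.21%. Among complex III inhibitors cluster 2 holds pyraclostrobin, trifloxystrobin, fenamidone and famoxadone, and not fluoxastrobin, cyazofamid or azoxystrobin. Gria1, Gria2, Gria4, Grik2 and Grik3 were below the vehicle mean in all 8 chemicals, as were 14.6% of all genes. Gria1 was between −0.68 and −0.31 and Grik3 between −1.60 and −0.22 in all 8, and Gria3 was above the vehicle mean in all 8 (0.043 to 0.28), as were 13.6% of all genes. In cluster 1, 7 chemicals that include the pyrethroids cyfluthrin and fenpropathrin, Gria1 (−0.75 to −0.22) and Grik3 (−0.79 to −0.12) were the only 2 of the 9 below the vehicle mean throughout, as were 7.97% of all genes, and Gria2 was above it in 6 of 7. There 8 of 63 pairs were below the vehicle range, against 3.99% for all genes. In the 4 chemicals of cluster 4, Grik2 (0.12 to 0.42), Grik3 (0.055 to 0.32), Gria2 (0.054 to 0.12) and Gria1 (0.00083 to 0.32) were above it throughout, as were 13.5% of all genes. In the 7 of cluster 6, Gria2 (−0.45 to −0.0020), Gria4 (−0.33 to −0.059) and Grik3 (−0.44 to −0.11) were below it throughout, as were 14.04% of all genes, and Grik5 was above it in 6. Of its 63 pairs 9 lay below and 3 above the vehicle range, against 6.88% and 4.07% for all genes. In the 5 of cluster 3 Gria2 alone was on one side of the mean throughout, at 0.017 to 0.15, as were 9.07% of all genes on the higher side.

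The 9 genes did not vary as one group. Over the chemicals other than the TOP1 inhibitors their 36 pairwise correlations (Pearson) ran from −0.22 to 0.54 with a median of 0.16, the highest being Gria1 with Grik3. Over the 49 vehicle libraries they ran from −0.21 to 0.66, again with Gria1 and Grik3 highest. These values are descriptive, since chemicals share culture and sequencing batches. The genes most like each member over chemicals were Ncam1 (r = 0.70), D430019H16Rik (0.69) and Syn2 (0.69) for Gria1, Psd3 (0.73), Fut9 (0.70) and Gabrb2 (0.67) for Gria2, and Ppm1e (0.77), Bcl11b (0.76) and Sv2b (0.76) for Grik3. Grik1 was closest to Gad2 (0.55), the GABA-synthesising enzyme of inhibitory neurons, then Cplx1 (0.54) and Kif5a (0.54). Gria3 was closest to Alcam (0.42), Gria4 (0.41) and Ntrk2 (0.39), and Gria4 to Grm5 (0.49), Negr1 (0.47) and Kctd12 (0.46). Grik2 was closest to Pcdh19 (0.50), Fam19a2 (0.49) and Grm5 (0.48), and Grik5 to Slc22a17 (0.60), Aplp1 (0.55) and Pcsk1n (0.55). Grik4 had no close partner, its highest r being 0.28 with Meis3, followed by Scml4 (0.27) and Faim2 (0.25). All these genes were picked as the highest over chemicals, and over the vehicle libraries r was lower for some and higher for others. There it was 0.29, 0.29 and 0.42 for the partners of Grik3, and 0.76, 0.79 and 0.56 for those of Gria2.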

How the data were processed

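Polyadenylated RNA was sequenced after TruSeq library preparation. The authors aligned reads to mm9 with TopHat and summarised RefSeq gene models by symbol. For the screen the authors deposited log10 values: RPKM values, filtered, log-transformed, quantile-normalised, median-centred and corrected for culture and sequencing batch, so depth is unknown and a batch cannot be examined again; they were converted to log2. Quantile normalisation and batch correction can shrink differences. For pyraclostrobin the authors deposited raw counts; depth was 2409623 to 7833440 counts per library, and use of strand in counting is not given in the sources used here. A sulforaphane count table was not used, since its 6 columns share 1 name; that comparison was not analysed here.

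Screen comparisons used limma 3.58.1 without a variance trend (32 topotecan against 49 vehicle libraries; medians of the chemicals of a class against those of all other chemicals). Counts used edgeR 4.0.16 (TMM scaling, genes with 10 or more counts in at least 4 libraries, quasi-likelihood test without a block), with DESeq2 1.42.0 as an alternative, in R 4.3.3. Benjamini-Hochberg adjustment ran over all genes of a table, with a threshold of 0.05. The fits were tested on simulated data. CPM values are scaled by TMM. Lengths and coordinates came from GENCODE vM1 on NCBIM37; 93.1% of the screen genes had a length. No 2 replicates agreed within sampling noise (chi-square over degrees of freedom at least 1.82).

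All 9 members are described in each comparison; of other receptor genes, up to 3 largest rises and 3 largest falls past the threshold; of single chemicals, the 3 lowest and 3 highest values per member, most of which are given; of similar genes, the 3 with the highest r. Neto2, Adarb1 and Adar are given in addition to the genes picked by these rules. The members and lists were chosen with earlier results of these data known. Alternatives were a variance trend, variable genes only, a threshold of 0.01, libraries centred again, vehicle as control, single libraries, other size factors, no count filter, a replicate block and leaving out chemicals or replicates.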

Additional observations from a re-analysis of the deposited data

Results flagged for a closer look

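In 2 of 27 groups of 4 libraries a single library lay far from the rest, measured as its gap to the nearest library over the whole range on a log2 scale, log2(CPM + 1) in the count table; chance flags about 1 in 20 groups. Grik1 was lowest in the pyraclostrobin library 428, with a gap of 0.913 of the range. That library had 3 counts, or 1.17 CPM, where the other treated libraries had 4.11 to 4.55 CPM. Grik3 was lowest in the vehicle library 428, with a gap of 0.868, at 116 CPM against 167 to 176 CPM in the other vehicle libraries. Both carry the number 428, whose libraries also stood apart from their groups over all genes. Without the pyraclostrobin library 428 or without the vehicle library 428, Grik1 and Grik3 stayed past the threshold.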

How the results depend on the processing

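Most results kept their direction and their side of the threshold. For single genes 537 values under an alternative did so, 28 lost the call, 8 gained one, and none reversed. With variable genes only, 3 members lower with topotecan were counted in place of 8, because only Grik1, Grik2 and Grik4 were tested, and all 3 passed; the counts were 0 in place of 2 for complex I inhibitors and 1 in place of 4 for complex III inhibitors. For complex I inhibitors the count was 0 at a threshold of 0.01, 0 with single libraries and 4 against vehicle libraries, and 0 to 3 when 1 chemical was left out. Over all genes 752 were lower against vehicle libraries, in place of 530. For complex III inhibitors it was 2 to 5 when 1 chemical was left out. For pyrethroids, 1 member, Grik3, was lower against vehicle libraries, in place of 0 (adjusted p = 0.00882, limma). Over all genes 284 were lower there, in place of 26. With pyraclostrobin 5 to 7 members were lower when 1 library was left out, 5 without the vehicle library 703, where Grik5 had an adjusted p of 0.0506 (edgeR).

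Whether the replicate numbers of the count table pair the libraries is not settled. Deviations from the group means correlated at 0.38, 0.11, −0.023 and 0.17 for the numbers 428, 702, 703 and 704, and of the treated libraries only 428 correlated best with the vehicle library of its own number. With the other vehicle libraries it correlated at −0.32 to −0.23. The treated library 428 is also a library of the screen, and the other treated libraries are not. With a replicate block 4804 genes were called in place of 4301, and 7 members were lower, as without it, and the log2 changes were −2.62 for Grik1, −1.61 for Grik3, −1.07 for Gria1 and −0.42 for Gria2. DESeq2 also gave 7. The comparison of sulforaphane plus fenamidone with fenamidone was not run.

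Over all genes, a threshold of 0.01 left 285 of 605 calls for complex I inhibitors, 1469 of 2329 for complex III inhibitors and 2631 of 4301 for pyraclostrobin; leaving out fenpyroximate left 4 complex I calls. Grik4 and Grik1 have few counts, which limits both.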
